A study of Mus musculus with 6 samples.

Results

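The cytokine feedback inhibitors of the SOCS family, Socs1 to Socs7 and Cish, were examined in bone marrow cells in which Notch1 signalling was switched on. All probe sets that the array's annotation assigns to these 8 symbols were taken, without regard to their values. They comprise 24 of the 45101 probe sets of the array, and all 8 genes, of 18193 measured, have at least 1. Cells were sorted as lineage negative, cKit+ and Sca1+ (LSK), a fraction of the marrow that holds stem cells and early multipotent progenitors, from mice 5 weeks old. The WT group consisted of 3 mice with the Mx1-cre transgene and no N1-IC allele. The N1IC group consisted of 3 mice with Mx1-cre and the lox-stop-lox N1-IC allele, which makes the active intracellular part of Notch1 once Cre has removed the stop. Mice of both groups were given 3 injections of polyIC at 20 mcg/g from the age of 21 days, and their cells were taken 2 weeks after the last. The Mx1 promoter answers to interferon, which polyIC induces, so Cre is not restricted to blood cells, and the WT mice carried the same Cre and received the same interferon inducer. Where the labels' treatment text names floxed Ncstn in place of N1-IC, the groups here follow the genotype labels.

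Cytokines such as interleukins, interferons and growth hormone bind receptors that carry JAK kinases, and the kinases activate STAT transcription factors. STAT factors in turn induce SOCS genes, whose proteins bind the receptor or its kinase through an SH2 domain and attach a ubiquitin ligase to it through a SOCS box, so that signalling is damped. Socs1, Socs2, Socs3 and Cish are the members best known as rapidly induced feedback inhibitors, while Socs4 to Socs7 have long amino-terminal parts and are less tied to cytokine induction.

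RNA was measured on 1 Affymetrix array per mouse, and values below are log2 intensities of probe sets. A difference of 1 on this scale is a doubling, and SD is given over the mice of a group (n = 3). The brightness of a probe set depends on its probes as well as on the RNA, so that RNA levels are compared between mice and not between genes. Words such as bright and dim refer to the signal of a probe set, which served only to choose probe sets and genes to name. A call means an adjusted p under 0.05 by limma with Benjamini-Hochberg adjustment. It was made either over 18193 genes with the brightest probe set of each (the gene fit) or over all 45037 probe sets other than controls (the probe set fit).

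Median intensity lay between 89.0 and 92.4 on the 6 arrays. The Notch target Hes1 rose 13.4-fold and Notch1 1.66-fold in the mice labelled N1IC, while Ncstn did not pass (log2 fold change -0.28, adjusted p = 0.345 by limma). Kit, which the gate selects for, did not pass either (log2 fold change -0.25, adjusted p = 0.226 by limma). Each N1IC mouse was still below every WT mouse for Kit, narrowly, with 11.57 in N1IC replicate 1 and 11.58 in WT replicate 2. Markers of other cells differed between the groups and between WT mice. Of 10 T cell markers 6 rose and none fell, and their summed intensity was 1032 to 2993 in WT and 14050 to 19140 in N1IC. Of 8 measured stem cell markers all 8 fell, as did 6 of 7 megakaryocyte and 4 of 7 B cell markers. Of 8 mast cell and basophil markers 2 rose, with Mcpt1, a mast cell protease, 190-fold higher, and the sum was 2321 to 7094 in WT and 10600 to 15330 in N1IC. Of 7 macrophage markers C1qb and C1qc rose and none fell, with overlapping sums of 1332 to 2823 and 1285 to 2935. Of 6 dendritic cell markers 2 fell, with sums of 13090 to 27310 in WT and 7307 to 11220 in N1IC. None of 6 NK and innate lymphoid cell and 5 erythroid markers was called. The NK and innate lymphoid cell sum was 1182 to 3450 in WT and 6894 to 13950 in N1IC. Of those 6 markers only Gzma had a positive log2 fold change (3.96). The other 5 were negative, and the median of the 6 was -0.93. Of 10 neutrophil and monocyte markers, which the gate should leave out, 2 fell. Their summed intensity was 30020 in WT replicate 1, 70210 and 69330 in WT replicates 2 and 3, and 23440 to 33980 in N1IC. The N1IC mice were all female, whereas WT replicate 2 was the only WT female. Fewer cells of a kind and less RNA per cell cannot be told apart in these sorted bulk samples, and the part that the mix of cells has in the values below was not tested.

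In N1IC cells Socs2, Socs3 and Socs5 fell, and Socs1, which was dim, rose slightly. Cish was lower in each N1IC mouse than in any WT mouse without passing the test, and Socs4, Socs6 and Socs7 overlapped between the groups on their brightest probe sets. The gene fit thus called 3 of 8 members lower and 1 higher, where it called 8.31% of all genes lower, 3.47% higher and 11.8% in either direction. The N1IC mice lay wholly below the WT mice for 4 members and wholly above them for 1, against 19.7% and 13.1% of all genes, or 32.8% in either direction. The median log2 fold change of the members was -0.37, beside -0.01 over all genes.

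**Figure D1:**
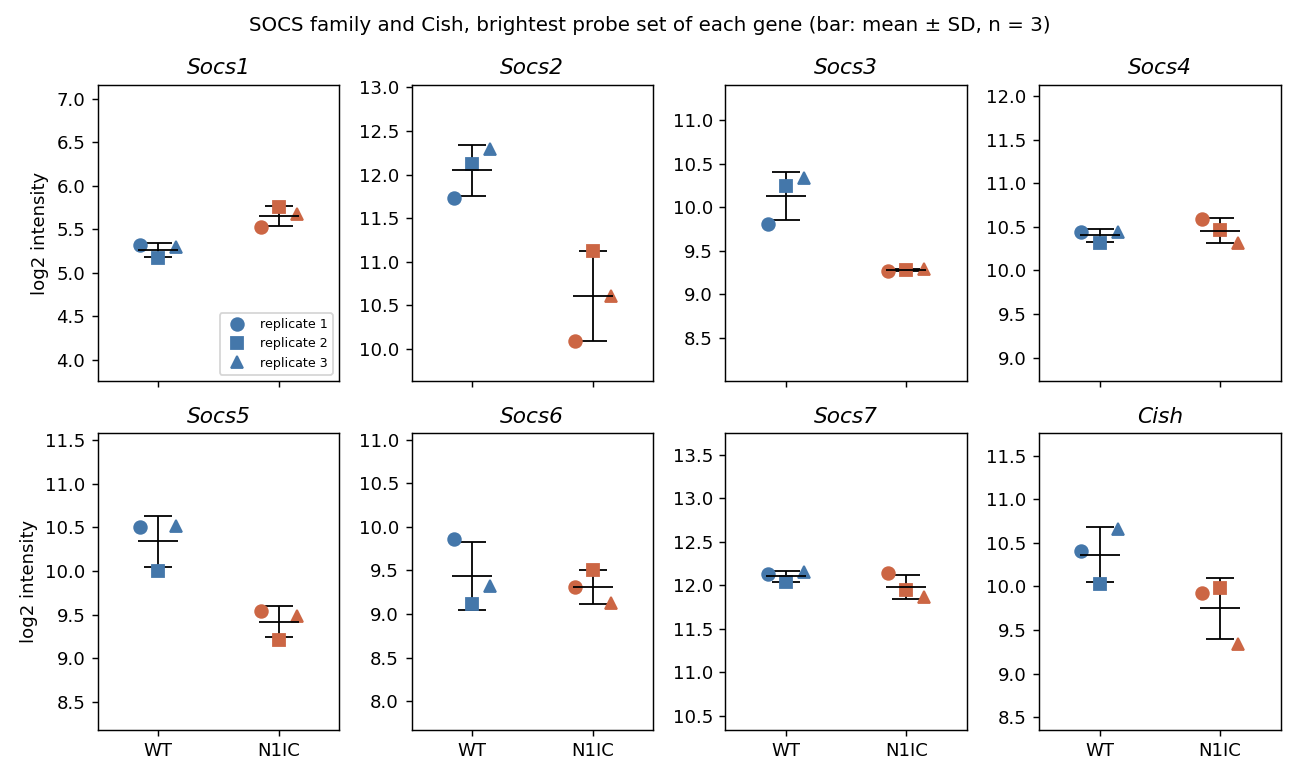
Log2 intensity of the brightest probe set of each gene in the 3 WT mice and the 3 N1IC mice, a point per mouse with bars for the mean ± SD; the vertical axis of each panel spans the same number of log2 units. Socs2, Socs3, Socs5 and Cish are lower in every N1IC mouse than in any WT mouse, Socs1 is slightly higher, and Socs4, Socs6 and Socs7 overlap.

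Socs2, which limits growth hormone and other STAT5 signalling and whose loss makes mice grow large, had the largest fall of the 8. Its brightest probe set stood at 11.73, 12.12 and 12.29 in the WT mice and at 10.09, 11.13 and 10.61 in the N1IC mice. The N1IC mice were all below the lowest WT mouse, and they were spread more widely, with an SD of 0.52 against 0.29 in WT. Socs2 was 2.71-fold lower (log2 fold change -1.44, SE 0.29, adjusted p = 0.0281 by limma in the gene fit), and 4.80% of all genes changed by more. The call held without WT replicate 1 (adjusted p = 0.0359 by limma) or N1IC replicate 2 (0.0228). It was lost without WT replicate 2, WT replicate 3, N1IC replicate 1 or N1IC replicate 3, where limma's adjusted p was 0.0828, 0.0925, 0.0583 and 0.0868.

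The 6 probe sets of Socs2 did not all behave alike. The next brightest (1449109_at) stood at 9.72, 10.41 and 10.54 in WT and at 8.32, 9.34 and 8.92 in N1IC, again with no overlap, and just missed the threshold (log2 fold change -1.36, adjusted p = 0.0623 by limma in the probe set fit). The mice took the same order on both, with WT replicate 1 lowest among WT and N1IC replicate 2 highest among N1IC. The remaining 4 were dim, with means between 4.26 and 5.09. Among these, 1441476_at was called lower, at 5.03, 5.07 and 5.05 in WT and 4.25, 4.21 and 4.06 in N1IC (log2 fold change -0.88, adjusted p = 0.00517 by limma), and it kept its call without any single array. A further one, 1438470_at, had no overlap and a log2 fold change of -1.12 without a call. The other two had 0.23 and 0.07, with overlapping groups. When all 6 were averaged the log2 fold change of Socs2 was -0.75. The suffix of the brightest probe set (1418507_s_at) marks probes that can match transcripts of more than one gene, and the next brightest carries no such mark.

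Socs3, which binds the shared receptor gp130 and the receptor for G-CSF and restrains STAT3, fell in all of its 3 probe sets. The brightest read 9.81, 10.24 and 10.33 in WT and 9.27, 9.28 and 9.29 in N1IC. The N1IC mice were nearly equal, with an SD of 0.012 against 0.28 in WT, and all lay below WT replicate 1, the lowest WT mouse. Socs3 was 1.80-fold lower (log2 fold change -0.85, SE 0.15, adjusted p = 0.0187 by limma in the gene fit). The other probe sets both had -1.03, and the probe set fit called each of the 3 (adjusted p between 0.0185 and 0.0362 by limma). The brighter 2 carry the array's mark for probes that can cross-react with other sequences. The dimmest (1416576_at), at 8.80, 9.12 and 9.35 in WT and 7.96, 8.20 and 8.03 in N1IC, does not. WT replicate 1, lowest for Socs3 in WT, had the lowest sum of the WT mice for every list of cell markers except stem cell and Kit. For those it was the highest, with a stem cell sum of 14640 against 9964 and 12260 in WT replicates 2 and 3. The part of this in the result was not tested. Without that mouse Socs3 had a log2 fold change of -1.01 (adjusted p = 0.00379 by limma), and no other fit without 1 array kept the call. Without WT replicate 2 or 3, or N1IC replicate 1, 2 or 3, limma's adjusted p was 0.06, 0.056, 0.0675, 0.0604 and 0.0627.

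A copy of the motif TTCNNNGAA, the core to which STAT dimers bind, stands upstream of Socs3. The 250 bases before its start in the RefSeq promoter table (GRCm38.p6, minus strand, chr11:117969367-117969616) are shown because Socs3 is a feedback gene that fell, with the matched letters in capitals at -154 to -146 from the start.
Socs3: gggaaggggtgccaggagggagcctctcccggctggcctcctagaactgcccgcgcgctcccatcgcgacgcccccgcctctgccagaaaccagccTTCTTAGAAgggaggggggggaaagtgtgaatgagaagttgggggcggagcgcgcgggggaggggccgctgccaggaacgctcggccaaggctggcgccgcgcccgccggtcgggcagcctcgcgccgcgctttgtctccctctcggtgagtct
The motif reads the same on both strands, and 8.30% of the 32851 windows of 300 bases in that table hold it. A match of letters is a description and shows no binding.

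Socs5, a member with a long amino-terminal part that has been tied to interleukin 4 and EGF receptor signalling, fell in both of its probe sets. The brighter stood at 10.50, 10.004 and 10.52 in WT and at 9.55, 9.21 and 9.49 in N1IC. The groups did not overlap, and replicate 2 was the lowest mouse in each of them. Socs5 was 1.90-fold lower (log2 fold change -0.93, SE 0.17, adjusted p = 0.0238 by limma in the gene fit). The dimmer probe set (1423349_at) was barely called in the probe set fit (log2 fold change -0.61, adjusted p = 0.0499 by limma), and each fit that left out an array lost that call. The gene's call held without WT replicate 2 (adjusted p = 0.0141 by limma). It was lost without WT replicate 1 or 3, or N1IC replicate 1, 2 or 3, where limma gave 0.0577, 0.0782, 0.0613, 0.0699 and 0.0677.

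Cish, a target of STAT5 that is induced by interleukin 2 and other cytokines, has a single probe set. It stood at 10.40, 10.03 and 10.66 in WT and at 9.92, 9.98 and 9.34 in N1IC. The groups did not overlap, but WT replicate 2 and N1IC replicate 2 were nearly equal, and N1IC replicate 3 was well below the other N1IC mice. The log2 fold change was -0.62 with an SE of 0.23 and a 95% interval from -1.19 to -0.05, which is not adjusted for the number of genes (adjusted p = 0.159 by limma in the gene fit). None of 16 alternative fits at the same threshold called Cish, and its log2 fold change in them lay between -0.79 and -0.28. Il2ra, which completes the high-affinity receptor for interleukin 2, rose 113-fold in the same mice. The beta chain gene Il2rb stood at 5.21, 8.41 and 8.21 in WT and 5.06, 5.79 and 5.55 in N1IC, with WT replicate 1 among the N1IC mice (log2 fold change -1.81, adjusted p = 0.25 by limma). Without that mouse Il2rb was called lower, at -2.85 (adjusted p = 0.00359 by limma), and so it was with female mice only, at -2.95 (0.0286).

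The start of Cish holds 2 copies of the STAT motif close together. They are shown in capitals in 30 bases around the start (GRCm38.p6, plus strand, chr9:107296654-107296683), from -5 to 25, because Cish is the member through which STAT5 activity is commonly read.
Cish: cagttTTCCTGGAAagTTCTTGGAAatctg
The copies lie at 1 to 9 and at 12 to 20, counted from the start in the RefSeq promoter table.

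Socs1, which inhibits JAK kinases directly and limits interferon and interleukin signalling in lymphocytes, has a single, dim probe set, with 30.8% of genes dimmer. It stood at 5.31, 5.18 and 5.30 in WT and at 5.52, 5.75 and 5.68 in N1IC. All N1IC mice were above all WT mice, by a small margin. Socs1 was 1.31-fold higher (log2 fold change 0.39, SE 0.09, adjusted p = 0.048 by limma in the gene fit), and 24.8% of all genes changed by more. The probe set fit did not call it (adjusted p = 0.0696 by limma). Its call was lost whichever array was left out, with limma's adjusted p from 0.0619 to 0.139, and after a further quantile normalization or median centring (0.0546 and 0.0629).

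Upstream of Socs1 stand 2 overlapping copies of GAAA, any 2 bases and GAAA again, the core of elements bound by interferon regulatory factors, and a copy of TGGGAA, the core bound by the Notch partner RBPJ. The 250 bases before the start (GRCm38.p6, minus strand, chr16:10785537-10785786) are shown with these matches in capitals, because Socs1 was the member called higher and both kinds of signal are part of the experiment.
Socs1: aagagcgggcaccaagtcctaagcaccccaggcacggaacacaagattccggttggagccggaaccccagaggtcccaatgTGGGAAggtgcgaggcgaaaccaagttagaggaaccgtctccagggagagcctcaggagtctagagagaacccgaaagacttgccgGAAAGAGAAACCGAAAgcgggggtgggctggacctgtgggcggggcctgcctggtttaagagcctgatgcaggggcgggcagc
The interferon-type copies lie at -83 to -74 and at -77 to -68, and the RBPJ-type copy at -169 to -164. Both strands were searched. The interferon-type core occurs in 3.44% of the windows and TGGGAA in 25.6%, so the latter is common. Neither occurs in the windows of Cish, Socs3 and Socs4, and TTCNNNGAA occurs in neither the Socs1 nor the Socs4 window. Whether the copies upstream of Socs1 are bound, or have a part in its values, was not tested.

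Socs4, Socs6 and Socs7, the remaining members with long amino-terminal parts, did not pass in any probe set. The brightest Socs4 probe set stood at 10.44, 10.32 and 10.44 in WT and 10.59, 10.47 and 10.31 in N1IC, so that the groups overlapped. Its log2 fold change was 0.06 with a 95% interval from -0.18 to 0.30, which leaves out changes as large as those of Socs2, Socs3 and Socs5. All 4 Socs4 probe sets had positive log2 fold changes, from 0.02 to 0.40, and limma's adjusted p in the probe set fit was at least 0.287. The 95% interval of the highest (1421274_at), from -0.08 to 0.88, does not leave out a rise as large as the fall of Socs3.

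Socs6, an adaptor linked to receptor tyrosine kinases such as Kit, stood at 9.86, 9.11 and 9.33 in WT and 9.31, 9.50 and 9.12 in N1IC. WT replicate 1 was the highest mouse and the others were mixed between the groups. Its log2 fold change was -0.12, with a 95% interval from -0.64 to 0.40, and the dimmer 2 probe sets gave 0.006 and -0.009. Socs7, an inhibitor tied to insulin and prolactin signalling, stood at 12.13, 12.03 and 12.15 in WT and 12.14, 11.95 and 11.87 in N1IC. Its log2 fold change was -0.12, with a 95% interval from -0.35 to 0.12. A dimmer Socs7 probe set (1434834_at) had no overlap between the groups, at 9.96, 9.91 and 10.09 in WT and 9.84, 9.83 and 9.74 in N1IC, without a call (log2 fold change -0.18, adjusted p = 0.28 by limma).

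Over all members, the probe set fit called 7 of 24 probe sets lower and none higher, where it called 4.76% of all probe sets lower, 3.16% higher and 7.92% in either direction. The N1IC mice lay wholly below the WT mice in 11 and above them in 1, against 14.6% and 14.9% of all probe sets, or 29.5% in either direction. Probe sets of a gene share its RNA, and the 7 come from 3 genes.

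**Figure D2:**
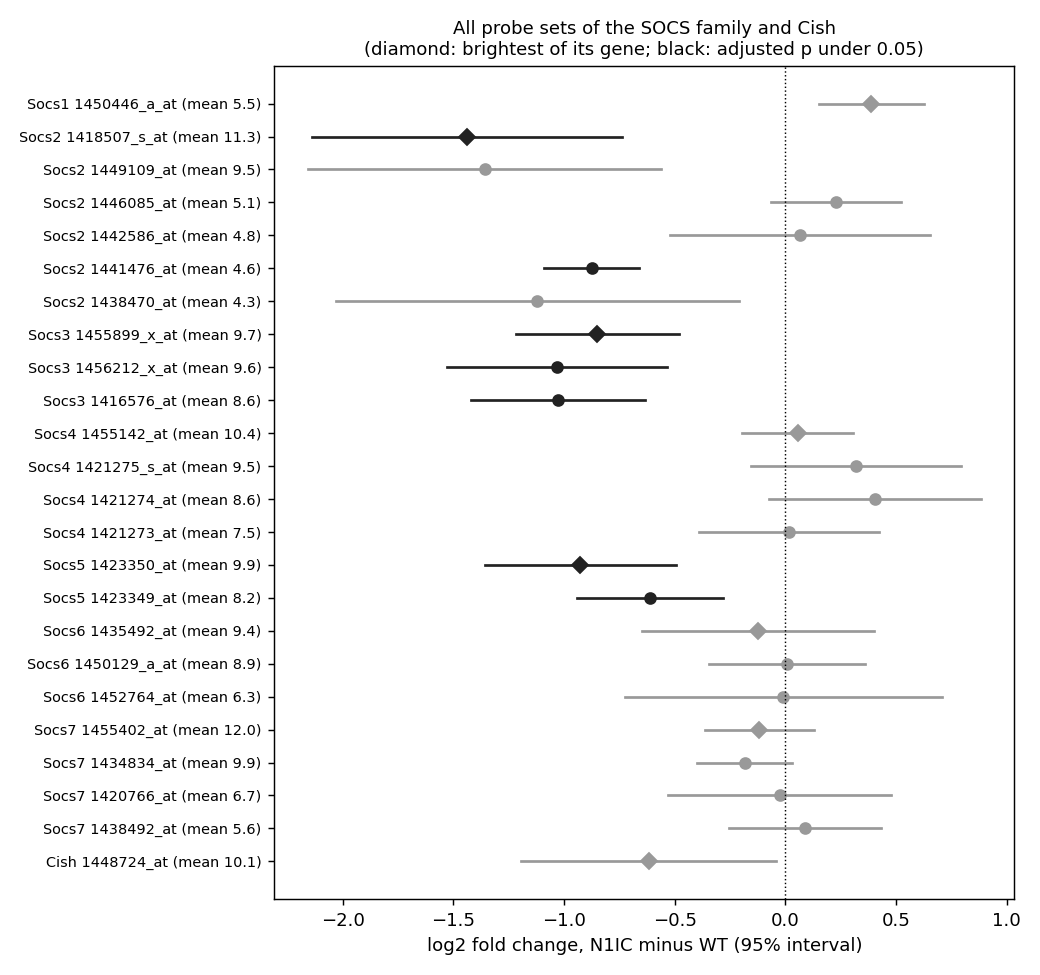
Log2 fold change, N1IC minus WT, of all 24 probe sets with the 95% interval of limma (horizontal axis), grouped by gene; diamonds mark the brightest probe set of a gene and black marks an adjusted p under 0.05 in the probe set fit. The 3 probe sets of Socs3 and the 2 of Socs5 lie below 0, and 4 of the 6 of Socs2 lie below 0. The 4 of Socs4 lie between 0.02 and 0.40, and those of Socs6 and Socs7 lie around 0.

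Cytokine receptors that use JAK kinases, the molecules on which SOCS proteins act, covered a wider range than the members. Of 31 measured receptor genes 3 rose and 9 fell, so that 38.7% were called, beside 11.8% of all genes. Their median log2 fold change was -0.53, and without 1 array 3 or 4 rose and 5 to 10 fell. Csf3r, the receptor for G-CSF and a binding partner of Socs3, stood at 9.48, 9.58 and 9.88 in WT and 5.76, 5.75 and 6.33 in N1IC, a 13.0-fold fall (adjusted p = 0.000604 by limma). Il27ra, the receptor for interleukin 27, was 1.94-fold lower, and Il12rb2, which encodes part of the interleukin 12 receptor, was 4.25-fold higher. The following receptors were chosen after their values were seen, because each is tied to signalling that a member is known to limit. All of those chosen were lower in N1IC, whereas of the 31 receptors 9 had positive and 22 negative log2 fold changes. Receptors left out of the choice include Il7r, Epor and Lepr, at 1.34, 0.24 and -0.007 without a call. Of 16 alternative fits at the same threshold, 3 called Il7r higher. Il12rb1, which rose 2.15-fold (adjusted p = 0.0116 by limma), was left out as well. Ghr, the growth hormone receptor on which Socs2 acts, fell 4.21-fold, from 7.72, 7.71 and 8.10 to 6.21, 5.56 and 5.53. Il6ra, the interleukin 6 receptor chain, fell 5.43-fold, and Il4ra, the interleukin 4 receptor chain, 1.97-fold. The call of Il4ra was lost without WT replicate 2 or 3 or N1IC replicate 1 or 2, where limma's adjusted p was 0.0799, 0.0773, 0.0889 and 0.0767. Il6st, which encodes gp130, stood at 10.44, 10.77 and 10.49 in WT and 10.17, 9.33 and 9.38 in N1IC, without overlap and without a call (adjusted p = 0.0637 by limma). It was called without N1IC replicate 1 (0.0133), with all its probe sets averaged (0.0142), among the brighter 60% of features (0.0485) and with an intensity trend (0.045). Of 8 receptor tyrosine kinases, Flt3 and Tek fell 8.47-fold and 4.39-fold and Pdgfrb rose 1.85-fold.

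The JAK kinases and STAT factors themselves gave calls in 10% of genes, near the 11.8% of all genes. Of 10 measured genes 1 fell and none rose. It was Jak3, the kinase of receptors with the common gamma chain, which stood at 9.81, 9.43 and 9.98 in WT and 8.74, 8.63 and 9.16 in N1IC (log2 fold change -0.90, adjusted p = 0.0391 by limma). That call was lost without WT replicate 1 or 3 or N1IC replicate 1 or 2, at 0.0893, 0.112, 0.122 and 0.111 by limma. Stat5a and Stat5b, which drive Cish and Socs2, had log2 fold changes of 0.19 and 0.04, and Stat3, which drives Socs3, had 0.32. None of the 3 was called (adjusted p of 0.219, 0.811 and 0.192 by limma). Of 16 alternative fits at the same threshold, 1 called Stat5a higher, the fit with all probe sets of a gene averaged. An array of RNA does not measure the phosphorylation by which STAT factors are activated.

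Other genes induced by the same STAT factors were set beside the members. Of 9 further genes induced through STAT5, 2 fell and none rose, with a median of -0.42. They were Bcl2, a survival factor, which fell 3.83-fold, and Id1, an inhibitor of basic helix-loop-helix factors, which fell 2.10-fold. Id1 kept its call without WT replicate 1 and lost it without any other single array, at adjusted p between 0.061 and 0.0938 by limma. Pim1, a kinase induced by STAT5 in blood cells, stood at 12.84, 12.76 and 12.80 in WT and 13.18, 12.94 and 13.30 in N1IC, opposite in sign to Socs2 and Cish and without a call (adjusted p = 0.111 by limma). The fit with an intensity trend called Pim1 higher, 1 of 16 alternative fits at the same threshold. None of 9 genes induced through STAT3 was called. The brightest of these were Fos and Pim3, with log2 fold changes of -0.34 and -0.33.

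Interferon-induced genes were included because polyIC induces interferon and interferon induces Socs1. Of 13 measured genes 3 rose and none fell, with a median log2 fold change of 0.23, and without 1 array 1 or 2 rose and 0 or 1 fell. Cxcl10, a chemokine induced by interferon, stood at 8.16, 8.54 and 8.88 in WT and at 10.90, 10.35 and 11.52 in N1IC, a 5.27-fold rise (adjusted p = 0.00895 by limma). Irf1, a transcription factor induced by interferon, rose 1.92-fold, and Gbp2, a guanylate binding protein, 1.41-fold. Of the fits without 1 array, Irf1 was called in the 1 without N1IC replicate 2 (adjusted p = 0.0178 by limma) and Gbp2 in the 1 without WT replicate 3 (0.0452), and in the rest limma's adjusted p reached 0.132 and 0.0858. Mx1, the gene whose promoter drives Cre in these mice, went the other way without a call, at 7.81, 8.12 and 9.54 in WT and 6.92, 6.08 and 6.70 in N1IC (log2 fold change -1.92, adjusted p = 0.0565 by limma). It was called lower without WT replicate 1 (0.0465), among the brighter 60% of features (0.0435), with an intensity trend (0.0379) and with probe sets averaged (0.0491).

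The 8 partners through which a SOCS box recruits a ubiquitin ligase all had log2 fold changes above 0, and 1 was called. That was Cul5, the cullin scaffold of this ligase, which rose 1.95-fold from 9.38, 9.31 and 9.18 to 10.34, 10.42 and 10.004 (adjusted p = 0.00862 by limma), a call that held without any single array. Of 16 other proteins with a SOCS box none was called, and the brightest, Wsb1 and Asb7, had log2 fold changes of -0.12 and -0.12. Among 16 other negative regulators of cytokine signalling, 2 fell and none rose. These were Inpp5d, the lipid phosphatase SHIP1, 1.55-fold lower, and Pias3, an inhibitor of STAT3, 1.53-fold lower. Pias3 lost its call without WT replicate 3 or N1IC replicate 2 or 3, at 0.0657, 0.0628 and 0.0661 by limma. Over all these lists without the members, 8 of 120 genes rose and 16 fell, with a median log2 fold change of -0.12. That is 20% called, beside 11.8% of all genes. By list the share was 37.5% for receptor tyrosine kinases, 23.1% for interferon-induced and 22.2% for STAT5-induced genes. It was 12.5% for the partners of the SOCS box and for the other negative regulators.

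**Figure D3:**
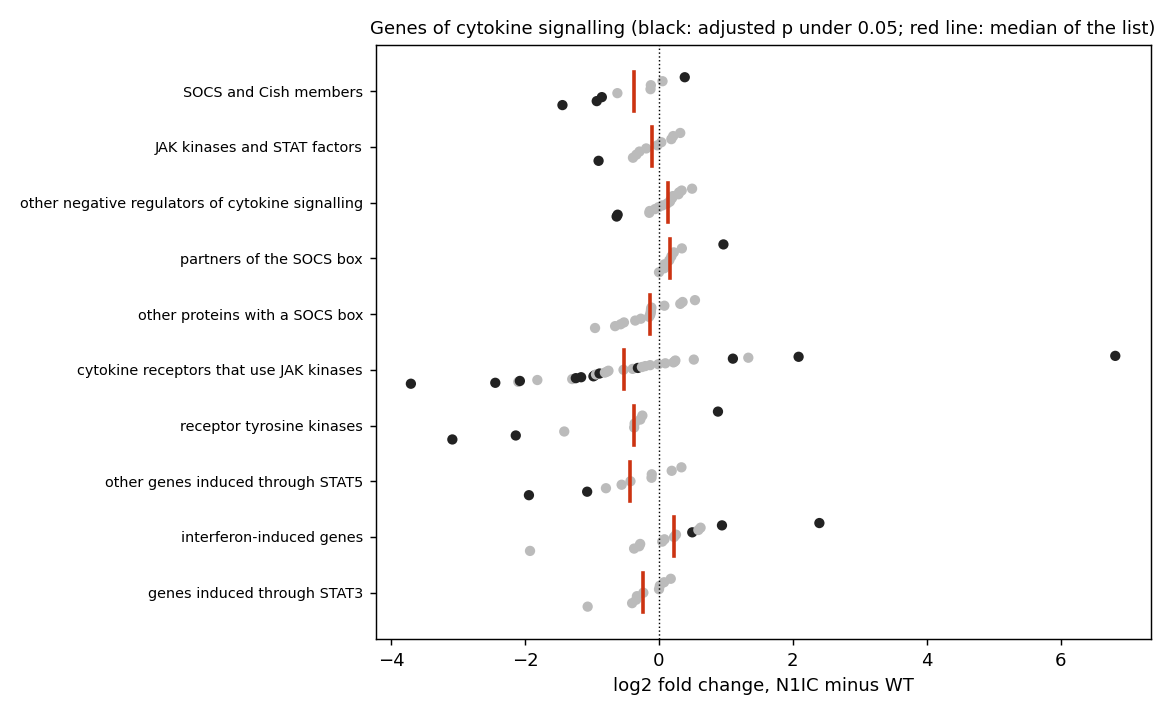
Log2 fold change, N1IC minus WT (horizontal axis), of each measured gene of the members and of the lists of cytokine signalling; each point is a gene, black points had an adjusted p under 0.05 in the gene fit and the red line is the median of the list. The receptors spread from the fall of Csf3r to the rise of Il2ra, whereas the JAK and STAT genes lie nearer 0.

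The genes brighter than the median gene whose profile over the 6 arrays was most like that of a called member were found by the root mean square difference of log2 values, each gene minus its own mean. For Socs2 they were Fmnl2, Dhrs7 and Pi16, with differences of 0.168, 0.185 and 0.198. For Socs3 they were Rab43, H2-DMa and Grn, with 0.0412, 0.0623 and 0.0643. H2-DMa encodes a chaperone of MHC class II loading and Grn the growth factor progranulin. For Socs5 they were Zfhx3, Wdfy3 and Erc1, with 0.089, 0.0999 and 0.102, and for Socs1 Malsu1, Snx30 and Ube2c, with 0.0316, 0.0366 and 0.0411. Genes with smaller changes can come closer by this measure, so the differences are not comparable between members.

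Sex is partly confounded with genotype here. With sex as a covariate, which sets the N1IC mice against WT replicate 2 alone, no member was called. Socs1, Socs2, Socs3 and Socs5 then had log2 fold changes of 0.48, -1.51, -0.97 and -0.59, with adjusted p of 0.163, 0.176, 0.106 and 0.165 by limma. With female mice only, which gives the same log2 fold changes, the WT arm is 1 mouse that is assumed to vary like the N1IC mice. Socs3, whose N1IC mice were nearly equal, was called in that fit (adjusted p = 0.033 by limma), and Socs1, Socs2 and Socs5 were not. Of the list genes named as called above, Csf3r, Il2ra, Il27ra and Bcl2 were called in both of these fits, Flt3 with the covariate alone and Il12rb2 with female mice alone. Tek, Pdgfrb, Ghr, Il6ra, Il4ra, Il12rb1, Cul5, Cxcl10, Irf1, Gbp2, Jak3, Id1, Inpp5d and Pias3 lost their call in both. Both fits set the N1IC females against 1 WT female, so a call kept there does not separate genotype from the traits of that mouse.

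**Figure D4:**
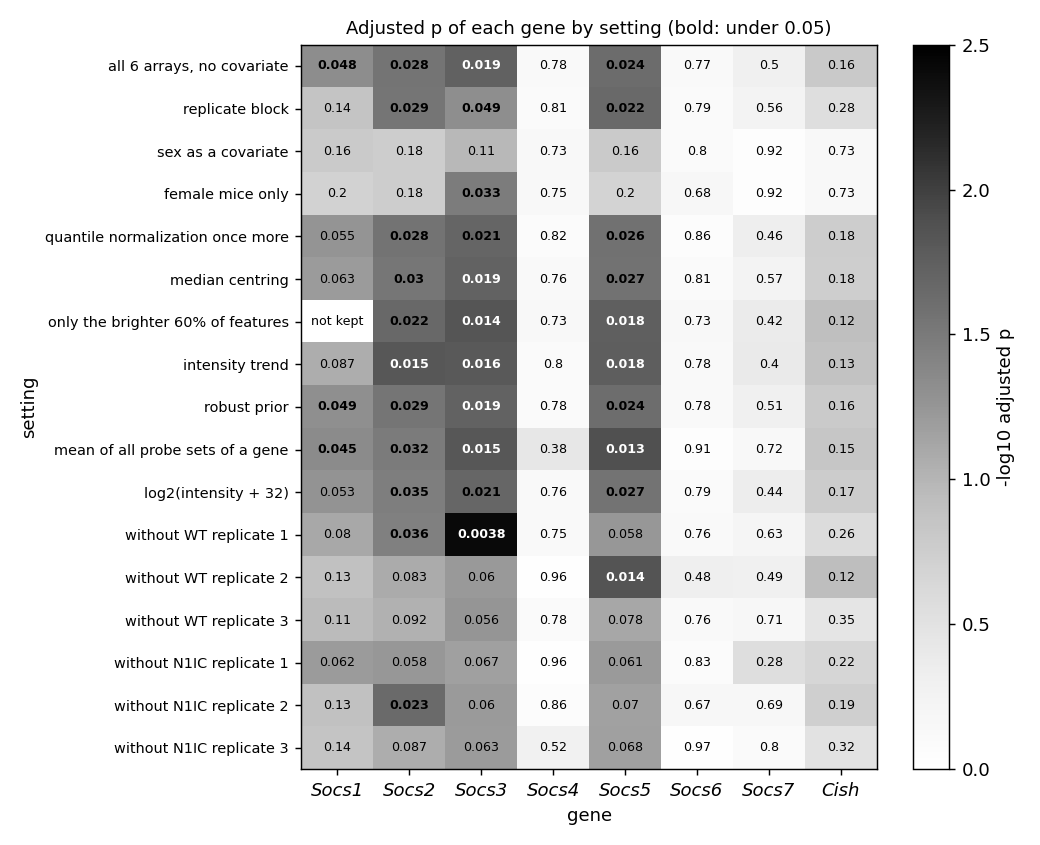
Adjusted p by limma of each gene (columns) under each setting of the analysis (rows), with darker shading for smaller values and bold type for those under 0.05; the cell "not kept" marks Socs1, which is not among the brighter 60% of features. Socs2, Socs3 and Socs5 were called in most settings that used all 6 arrays and in few that left 1 out, and Socs4, Socs6, Socs7 and Cish in none.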

How the data were processed

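Per the submitters' processing notes, the arrays were summarised with RMA. The deposited table holds a linear intensity per probe set and array, a scale settled from the range of its values. The version of RMA is not given in the sources used here. Per the labels' protocols, 5 ng of total RNA was amplified before labelling. Fold changes of dim probe sets can be compressed, which was not tested here.

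The log2 of each intensity was analysed. Of 45101 probe sets, 34945 had 1 symbol, 932 several and 9160 none, besides 64 controls. Current symbols came from RefSeq (GRCm38.p6) by gene identifier, for 34741 probe sets. Each of 18193 genes was represented by its brightest probe set. Groups were compared with limma 3.58.1 (R 4.3.3), a linear model on genotype alone with moderated variance, 4 residual and 2.05 prior degrees of freedom. The procedure was tested on simulated data. An exact permutation test of 3 against 3 samples cannot go below p = 0.1 and was not used.

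The members and lists were chosen with earlier results of these data known. Named were all members, the up to 4 called genes of each list with the smallest p (or else the brightest 2), Hes1, Notch1, Il2ra and Ncstn, and the 3 genes most like each called member. Il2rb, Ghr, Il6ra, Il4ra, Il6st, Il7r, Il12rb1, Epor, Lepr, Stat3, Stat5a, Stat5b, Pim1, Mx1, Kit, Mcpt1, C1qb, C1qc and Gzma were named after their values were seen. Of 127 list genes 120 matched, and the rest were not analysed here. RefSeq promoter windows were found for Cish, Socs1, Socs3 and Socs4, with members on chromosome 18 left out of the search. The labels do not give litters, so the p-values, which set the group difference against the spread between mice, take the mice as independent.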

Additional observations from a re-analysis of the deposited data

How the results depend on the processing

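Socs2, Socs3 and Socs5 had negative log2 fold changes in all 16 alternative fits at the same threshold. They were called in 10, 10 and 9 of them, Socs1 in 2 of 15, and Socs4, Socs6, Socs7 and Cish in none. With 1 array left out, 0 member genes were higher and 0 to 2 lower, and 1 to 7 member probe sets were lower. Of all genes 332 to 509 were then higher and 835 to 1420 lower, and of the list genes 6 to 7 and 10 to 20. These fits have fewer samples. The number of member genes higher was 0 with a further quantile normalization, median centring, the brighter 60% of features (which leave out Socs1), an intensity trend or log2(intensity + 32).

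Replicate numbers did not pair the samples. The deviations of same-numbered arrays correlated at -0.0884, -0.0934 and 0.0956, and 2 of 6 arrays correlated best with their own number. With the replicate block 357 of all genes were higher and 936 lower, and 0 member genes were higher and 3 lower.

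With sex as a covariate 0 member genes were higher and 0 lower, 0 member probe sets were lower, 116 of all genes were higher and 333 lower, and 1 list gene was higher and 5 lower. With female mice only these numbers were 0 and 1, 1, 142 and 504, and 2 and 5. At an adjusted p under 0.01 they were 0 and 0, 1, 209 and 536, and 5 and 9. At 0.1, 1038 genes and 1 member probe set were higher and 27 list genes lower.

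Signs turned only for values without a call. With sex as a covariate, and equally with female mice only, Socs6 had 0.198 on its brightest probe set and -0.0542 and 0.387 on the others, a Socs4 probe set -0.296, a Socs7 probe set -0.158 and Wsb1 0.0228. The dimmest Socs6 probe set had 0.00954 after quantile normalization and 0.00100 after median centring. With 1 array left out, the log2 fold change of Socs4 ranged from -0.0111 to 0.129, and that of its dimmest probe set from -0.0732 to 0.172. For Socs6 the ranges were -0.284 to 0.0912, -0.0909 to 0.118 and -0.277 to 0.205 by probe set. For the dimmer Socs7 probe sets they were -0.196 to 0.179 and -0.0185 to 0.213, and for a dim Socs2 probe set -0.136 to 0.249. The cause was not tested. The number of arrays limits the precision throughout.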
